A study of Mus musculus with 27 samples.

Results

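The 9 genes described here, Adora2a, Gpr6, Gnal, Gng7, Rgs9, Rasd2, Rasgrp2, Ppp1r1b and Arpp21, encode receptors and signal proteins of medium spiny neurons. They were found by gene symbol among the 52636 Ensembl gene identifiers of the count tables, and each symbol matched 1 identifier in both regions. RNA-sequencing had been run on frontal cortex (FX) and striatum (STR) of mice of the 129S1 strain at about 2.5 months of age. Wild-type (+/+) mice were compared with Igf2enh-/- mice, which are homozygous for a 4.9 kb deletion between H19 and Igf2. The deletion came from targeting in embryonic stem cells and is carried in the germline, so it is not limited to a cell type. One loxP site was left in its place after an Hprt-CRE cross removed the selection cassette. Frontal cortex was represented by 6 wild-type and 6 Igf2enh-/- libraries, with 3 females and 3 males in each group. Striatum was represented by 7 wild-type libraries (3 females and 4 males) and 8 Igf2enh-/- libraries (4 females and 4 males). Each library was 1 piece of tissue, and the labels do not say which libraries of the 2 regions came from the same mouse, so all were treated as separate samples.

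Medium spiny neurons are the GABAergic projection neurons of the striatum and make up most of its neurons. They receive glutamate from cortex and dopamine from midbrain, and much of their response to dopamine and adenosine runs through cyclic AMP. Receptors coupled to the stimulatory G protein alpha subunit G olf raise cyclic AMP, RGS proteins end G protein signals, and protein kinase A then phosphorylates regulators of protein phosphatases. Those of the direct pathway carry Drd1 and those of the indirect pathway carry Drd2 and Adora2a.

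RefSeq promoter windows on GRCm38.p6 were at hand for 6 of the 9 genes, and not for Adora2a, Gnal and Ppp1r1b. The 250 bases before the start of Gpr6 (chr10:41072291-41072540, minus strand), Rgs9 (chr11:109298182-109298431, minus strand) and Gng7 (chr10:81014926-81015175, minus strand, the outermost of its 2 listed starts) are given 5′ to 3′, because these 3 genes had the largest differences between regions among the 6. Capitals mark matches on either strand to the motifs searched.
Gpr6: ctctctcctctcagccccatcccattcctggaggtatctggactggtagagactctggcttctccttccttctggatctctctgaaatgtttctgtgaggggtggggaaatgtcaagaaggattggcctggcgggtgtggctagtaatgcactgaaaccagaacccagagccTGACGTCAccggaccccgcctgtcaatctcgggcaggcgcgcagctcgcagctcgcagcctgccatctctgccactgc
Rgs9: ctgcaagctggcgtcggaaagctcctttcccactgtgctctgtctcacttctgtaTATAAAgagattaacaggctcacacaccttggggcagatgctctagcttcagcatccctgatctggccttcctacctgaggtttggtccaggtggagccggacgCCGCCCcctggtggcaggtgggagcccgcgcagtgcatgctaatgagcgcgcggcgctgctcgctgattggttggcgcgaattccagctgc
Gng7: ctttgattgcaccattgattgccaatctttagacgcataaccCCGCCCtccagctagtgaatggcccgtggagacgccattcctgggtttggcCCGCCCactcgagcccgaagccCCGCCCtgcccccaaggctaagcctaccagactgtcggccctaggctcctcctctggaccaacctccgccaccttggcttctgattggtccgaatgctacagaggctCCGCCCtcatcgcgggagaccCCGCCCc
Gpr6 held the full cyclic AMP response element TGACGTCA, which begins 78 bases before the start. That element occurred in 1.55% of the 32851 RefSeq windows of the same length that were searched, and in 1 of the 16 windows of the 6 genes. Rgs9 held TATAAA (12.4% of all windows) 195 bases before its start and 1 GC box GGGCGG (32.7% of all windows), read on the other strand as CCGCCC. Gng7 held 5 GC boxes, and GC boxes also occurred in both Rasgrp2 windows. The core TGACG, which the full element contains on each strand, occurred in 17.8% of all windows and in 4 of the 16. The MEF2 site occurred in 3.2% of all windows and in 1 of the 16, at an inner start of Arpp21. GCGNGGGCG, bound by EGR factors, occurred in 4.7% of all windows and in none of the 16. A match is only a match of letters, and binding was not measured.

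Library totals ranged from 23686945 to 33926904 counted reads, and values are given as CPM, read counts scaled to a common library size, after TMM normalization. Gpr6 rested on only 9 to 24 reads in each frontal cortex library. The markers of medium spiny neuron identity summed to 3099 to 8233 CPM in striatum and 574 to 671 CPM in frontal cortex. The 12 cortical projection neuron markers, led by Slc17a7, summed to 2694 to 3004 CPM in frontal cortex and were also detected in every striatal library, at 68.2 to 1433 CPM. Slc17a7 ranged from 13.8 to 742 CPM in the striatum.

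Striatal library 20, from a wild-type male, stood apart. It held the highest value of all 12 cortical projection neuron markers and of all 7 oligodendrocyte markers among the 15 striatal libraries, and the lowest value of all 8 identity markers. Over all 13875 genes tested in striatum, 20.6% were highest and 24.8% lowest in this library. Tests that compare wild-type striatal libraries with others are therefore given with and without it. Igf2, next to the deletion, was at 52.1 to 107 CPM (median 71.2) in wild-type and 88.2 to 171 CPM (median 119) in Igf2enh-/- frontal cortex. In striatum Igf2 was at 33.8 to 44.3 CPM (median 36.7) in wild-type and 46.3 to 261 CPM (median 51.5) in Igf2enh-/- libraries. The library at 261 CPM, library 15, also held the highest summed choroid plexus markers (3407 CPM) and meningeal fibroblast markers (48.0 CPM) of the striatum, and frontal cortex library 1, at 171 CPM, the highest meningeal fibroblast sum (127 CPM). Their part in the Igf2 levels was not tested. Whether the deleted bases belong to any counted gene was not examined, so the genotype labels were not checked against reads from them.

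The first comparison asked how far these genes separate the 2 regions. All 9 were higher in striatum than in frontal cortex in both genotypes, by 3.24-fold (Arpp21) to 187-fold (Adora2a) in wild-type mice. In edgeR's quasi-likelihood test all 9 passed an adjusted p of 0.05 as higher in striatum, as did 32.6% of the 17963 genes tested. The 9 were chosen as genes of medium spiny neurons, so their direction was largely set by that choice. Every striatal library lay above every frontal cortex library for each of the 9, library 20 included, which held for 11.7% of the genes tested. The median log2 fold change of the 9 was 4.26 in wild-type mice, against 0.02 over all genes tested, and only 0.952% of all genes exceeded a log2 fold change of 4. In bulk tissue, fewer cells of a type and less RNA per cell cannot be told apart.

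**Figure D1:**
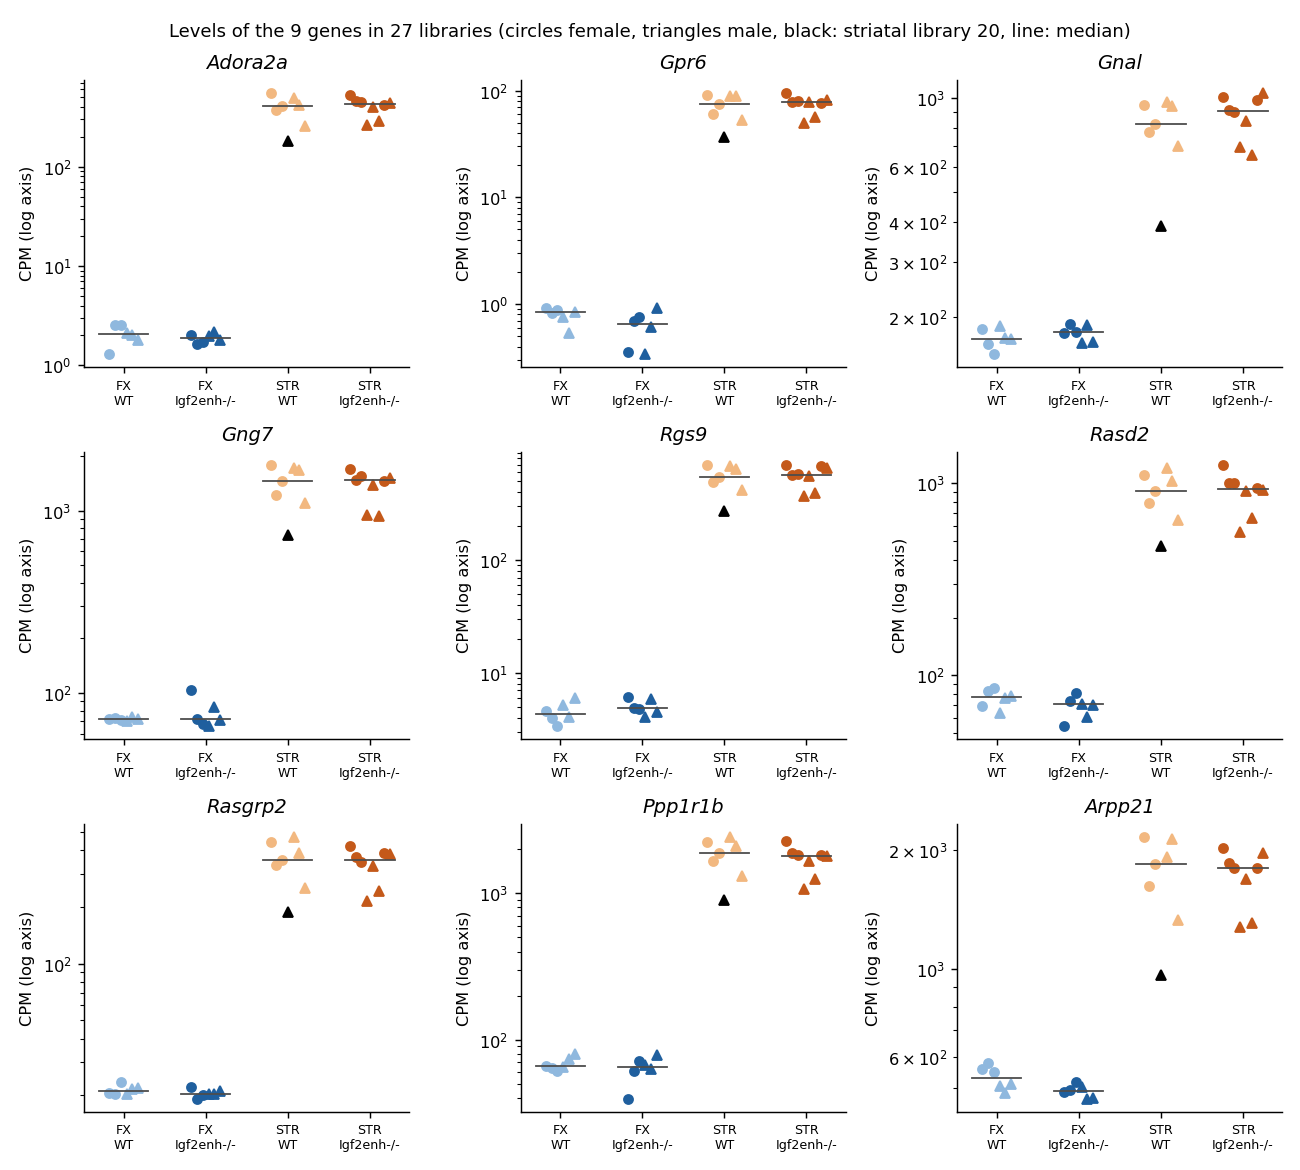
CPM of each gene (log axis) in the 27 libraries, by region and genotype, with circles for females, triangles for males and a line at the group median. All striatal libraries lie above all frontal cortex libraries in each panel, and library 20 (black) is the lowest striatal library of each gene.

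Of the receptor genes, Adora2a showed the steepest contrast of all 9 genes in wild-type mice, and Gpr6 came after Rgs9. Adora2a (ENSMUSG00000020178, chr10:75316877-75334792), the adenosine receptor of indirect-pathway neurons, was at 1.30 to 2.57 CPM (median 2.05) in wild-type frontal cortex and 182 to 553 CPM (median 403) in wild-type striatum. Igf2enh-/- mice had Adora2a at 1.63 to 2.16 CPM (median 1.90) in frontal cortex and 261 to 525 CPM (median 428) in striatum. The lowest striatal library held 70.9 times the highest cortical value, so the regions were far from overlapping. Gpr6 (ENSMUSG00000046922, chr10:41069977-41072290), an orphan receptor that raises cyclic AMP without an added ligand, was at 0.54 to 0.92 CPM (median 0.84) in wild-type frontal cortex and 36.5 to 90.8 CPM (median 74.4) in wild-type striatum. In Igf2enh-/- mice Gpr6 was at 0.34 to 0.92 CPM (median 0.66) in frontal cortex and 50.1 to 95.5 CPM (median 78.4) in striatum. The log2 fold changes in wild-type mice were 7.55 (SE 0.25, adjusted p = 8.99e-18) for Adora2a and 6.49 (SE 0.24, adjusted p = 6.93e-17) for Gpr6.

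Among the G protein genes, Gng7 and Gnal differed in how much of their RNA was also found in cortex. Gng7 (ENSMUSG00000048240, chr10:80948624-81014925), the gamma subunit that partners G olf, was at 70.6 to 73.6 CPM (median 72.2) in wild-type frontal cortex and 733 to 1775 CPM (median 1447) in wild-type striatum. In mice with the deletion Gng7 was at 65.6 to 104 CPM (median 71.8) in frontal cortex and 937 to 1681 CPM (median 1462) in striatum. Gnal (ENSMUSG00000024524, chr18:67088298-67226792), which encodes the G olf alpha subunit, was at 152 to 187 CPM (median 170) in wild-type frontal cortex and 389 to 967 CPM (median 824) in wild-type striatum. In the Igf2enh-/- group Gnal was at 165 to 190 CPM (median 178) in frontal cortex and 659 to 1037 CPM (median 905) in striatum. The regions did not overlap for either gene, and the wild-type log2 fold changes were 4.26 (SE 0.18) for Gng7 and 2.22 (SE 0.15) for Gnal. The gap between regions was narrow for Gnal, whose lowest striatal value was 2.05 times its highest cortical one, against 7.04 times for Gng7.

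Rgs9 (ENSMUSG00000020599, chr11:109225348-109298181), whose striatal product speeds the end of G protein signals below dopamine and opioid receptors, was low in cortex. It was at 3.34 to 5.94 CPM (median 4.30) in wild-type frontal cortex and 271 to 698 CPM (median 552) in wild-type striatum. The Igf2enh-/- group had Rgs9 at 4.07 to 6.13 CPM (median 4.83) in frontal cortex and 373 to 692 CPM (median 575) in striatum. Its log2 fold change in wild-type mice was 6.89 (SE 0.23, adjusted p = 1.53e-17), the second highest of the 9 after Adora2a.

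Rasd2 and Rasgrp2 act on small GTPases. Rasd2 (ENSMUSG00000034472, chr8:75213944-75224113) encodes Rhes, a small GTPase known from the striatum, and was at 63.9 to 86.5 CPM (median 77.3) in wild-type frontal cortex and 469 to 1195 CPM (median 908) in wild-type striatum. In Igf2enh-/- mice Rasd2 was at 54.2 to 81.2 CPM (median 70.6) in frontal cortex and 555 to 1243 CPM (median 933) in striatum. Rasgrp2 (ENSMUSG00000032946, chr19:6398957-6415216), a calcium- and diacylglycerol-regulated exchange factor for Rap, was at 20.2 to 23.5 CPM (median 21.1) in wild-type frontal cortex and 189 to 469 CPM (median 356) in wild-type striatum. In Igf2enh-/- mice Rasgrp2 was at 19.2 to 22.2 CPM (median 20.3) in frontal cortex and 215 to 422 CPM (median 357) in striatum. The wild-type log2 fold changes were 3.54 (SE 0.19) for Rasd2 and 4.03 (SE 0.18) for Rasgrp2.

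Ppp1r1b and Arpp21 encode phosphoproteins regulated by cyclic AMP, and Arpp21 was the gene of the 9 with the most modest regional contrast. Ppp1r1b (ENSMUSG00000061718, chr11:98348406-98357796), whose product inhibits protein phosphatase 1 once protein kinase A has phosphorylated it, was at 61.1 to 79.8 CPM (median 65.8) in wild-type frontal cortex and 905 to 2413 CPM (median 1879) in wild-type striatum. The Igf2enh-/- libraries had Ppp1r1b at 39.6 to 78.7 CPM (median 65.4) in frontal cortex and 1074 to 2276 CPM (median 1801) in striatum. Arpp21 (ENSMUSG00000032503, chr9:112065091-112236288) was at 487 to 580 CPM (median 531) in wild-type frontal cortex and 968 to 2157 CPM (median 1844) in wild-type striatum. In Igf2enh-/- mice Arpp21 was at 470 to 519 CPM (median 491) in frontal cortex and 1278 to 2021 CPM (median 1806) in striatum. Its log2 fold change in wild-type mice was 1.70 (SE 0.13, adjusted p = 3.16e-11), the lowest of the 9, against 4.71 (SE 0.22) for Ppp1r1b. Arpp21 overlaps 4 other RefSeq genes, among them the microRNA gene Mir128-2 and 3 long noncoding RNAs, and the strand setting of the counting is not given in the sources used here. For the same reason reads of Ppp1r1b, Gng7, Rasgrp2 (1 overlapping gene each) and Gnal (3) could in part come from a neighbour, while Rgs9, Rasd2, Adora2a and Gpr6 overlap none. Positions are those of RefSeq on GRCm38.p6.

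**Figure D2:**
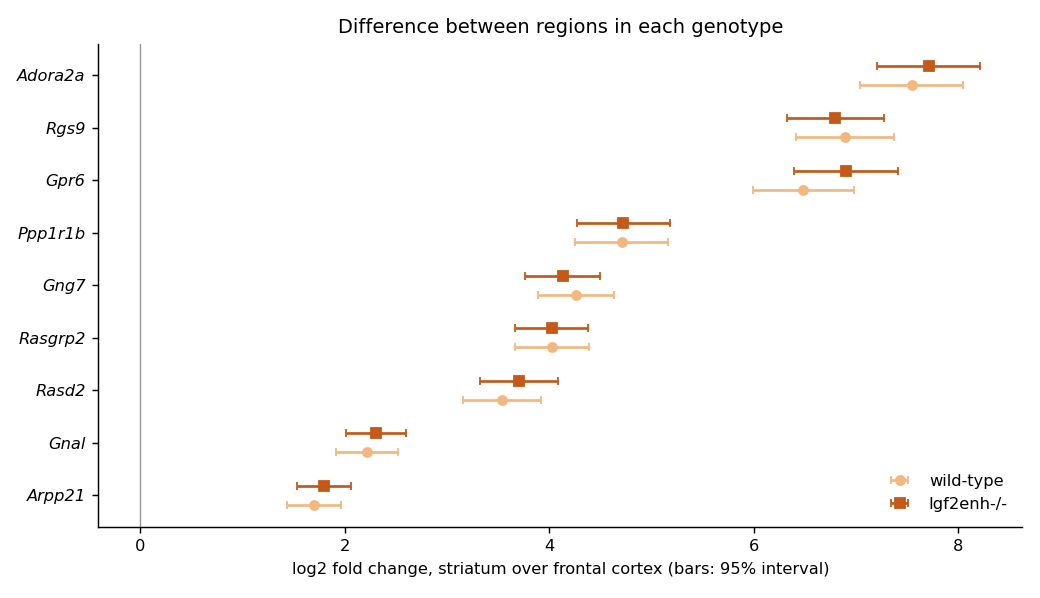
Log2 fold change of striatum over frontal cortex for each gene in wild-type (circles) and Igf2enh-/- mice (squares), with 95% intervals from the fit. The 9 genes run from 1.70 for Arpp21 to 7.55 for Adora2a in wild-type mice, and the intervals of the 2 genotypes overlap for every gene.

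The order of the genes was nearly the same in Igf2enh-/- mice, where the log2 fold changes ran from 1.80 (Arpp21) to 7.71 (Adora2a) with a median of 4.13, and Gpr6 (6.91) and Rgs9 (6.80) changed places. All 9 passed the test there, as did 33.2% of the 17963 genes as higher in striatum. Without library 20 all 9 again passed in wild-type mice, as did 34.4% of 17934 genes as higher in striatum, and the median was 4.37, against 4.26 with it. The test of region by genotype called 0 of the 9 and 0 of the 17963 genes (0.0%) in edgeR, where 550 genes (3.06%) had an unadjusted p under 0.05 but none of the 9, and DESeq2 also called 0. The largest difference was that of Gpr6 (log2 0.42, 95% interval -0.42 to 1.26), which rests on the 9 to 24 reads per frontal cortex library. For the other 8 genes the log2 difference lay between -0.13 (Gng7) and 0.17 (Rasd2). The intervals reached down to -0.66 (Rgs9) and up to 0.83 (Adora2a) among those 8. Differences within the interval of a gene could have gone undetected. Without library 20 the test again called 0 of the 9 and 0 of 17934 genes (0.0%), and the median of the 9 turned from 0.09 to -0.03, with 4 positive and 5 negative against 6 and 3.

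Levels were compared between genes per kilobase of exon, with exon lengths from an older GENCODE annotation that sums all exons of a gene. Over the 15 striatal libraries the medians fell in the order Ppp1r1b (619 CPM per kilobase), Gng7 (382), Rasd2 (291), Adora2a (163), Gnal (113), Arpp21 (110), Rgs9 (89.4), Gpr6 (43.9) and Rasgrp2 (28.7). Each gene was above the next in all 15 libraries, except that Gnal was above Arpp21 in 10 and not in the other 5. The ranges over libraries of all neighbours overlapped. In frontal cortex Arpp21 (30.7) led in all 12 libraries, and Rasd2 (22.7), Ppp1r1b (22.5) and Gnal (22.0) could not be ordered, as each was above the next in only 5 and 7 of 12 libraries. Gng7 (19.1) followed, and Rasgrp2 (1.65), Adora2a (0.79), Rgs9 (0.73) and Gpr6 (0.43) lay far below, with Adora2a above Rgs9 in 6 of 12 libraries. The long summed exons of Arpp21 (16488 bases, 34 transcripts) and Rasgrp2 (12384 bases, 24 transcripts) lower their values on this scale.

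The other genes of the striatal signalling pathway, a list of 52 of which 51 were in the tables, spread much more widely between regions. Of the 50 tested, 30 were higher and 14 lower in wild-type striatum and 6 did not pass, with a median log2 fold change of 0.35. Without library 20 the counts were 31, 12 and 7 and the median 0.42. The largest log2 fold changes were those of the dopamine receptor genes Drd2 (8.19, SE 0.26) and Drd1 (5.16, SE 0.22). The 3 with the smallest were Prkar1b (-1.42, SE 0.13), a regulatory subunit of protein kinase A, Gnas (-1.08, SE 0.16), the stimulatory G alpha subunit of most tissues, and Rgs7 (-0.84, SE 0.05), a relative of Rgs9. For 2 pairs of related genes the directions were thus opposite, with Gnal higher and Gnas lower in striatum, and Rgs9 higher and Rgs7 lower. Other RGS genes of the list did not go with Rgs7. Rgs2 (1.57), Rgs8 (1.23) and Rgs14 (0.58) passed as higher in striatum, and Rgs4 (0.17) did not pass. Gnas was at a median of 1108 CPM in wild-type frontal cortex and 526.3 CPM in wild-type striatum, and Rgs7 at 111 and 59.3 CPM.

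Within the striatum the 9 genes rose and fell together from library to library, whatever the genotype. Library 20 was the lowest of the 15 for all 9 genes, at 44.1% (Gnal) to 51.4% (Arpp21) of the median of the other 6 wild-type libraries. It was followed by libraries 19 and 23 (Igf2enh-/- males) and 26 (a wild-type male), in which all 9 genes were below their striatal median. Library 16, a wild-type female, was the other one with all 9 below. Libraries 22 and 14 (wild-type) and 13 (Igf2enh-/-) had all 9 above. The median of the 9 log2 values relative to the striatal median was -1.001 in library 20, -0.63 in library 19, -0.51 in library 23 and -0.48 in library 26, and reached 0.29 in library 14.

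**Figure D3:**
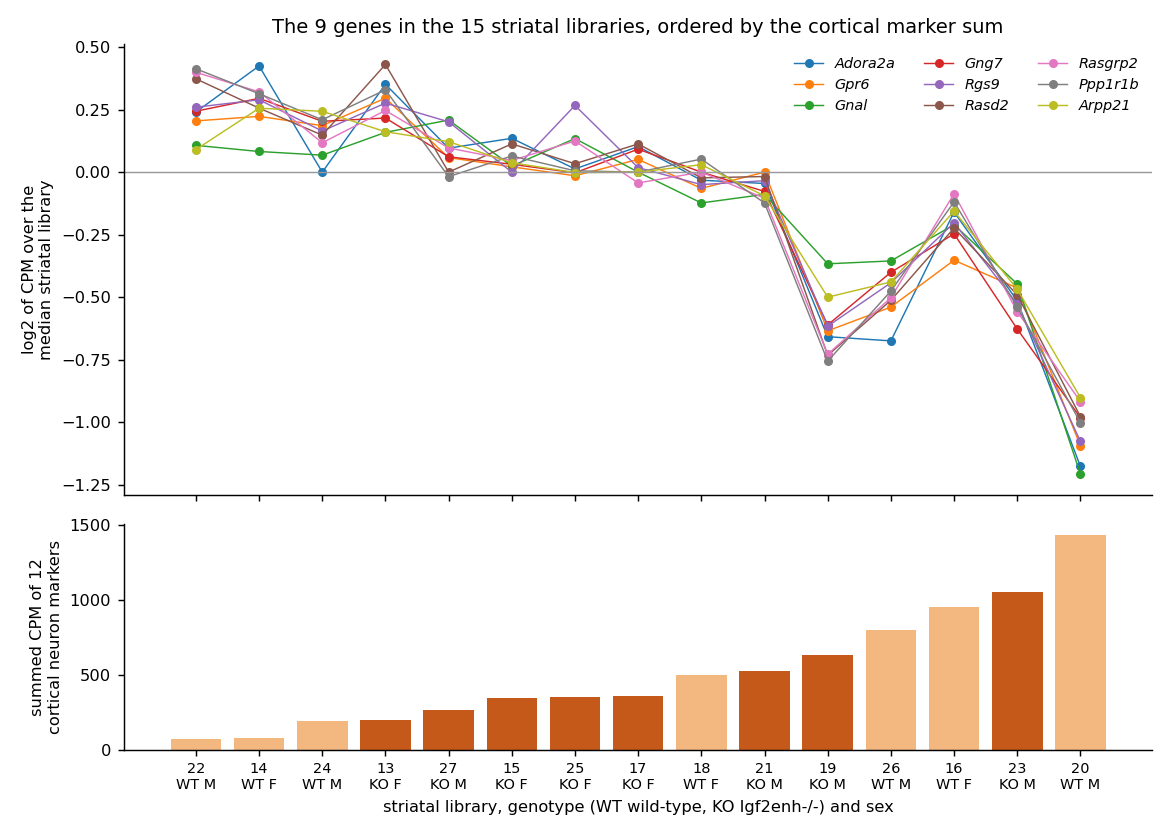
Upper panel, log2 of each gene's CPM over its median in the 15 striatal libraries; lower panel, the summed CPM of 12 cortical projection neuron markers in the same libraries, which are ordered by it and labelled by genotype and sex. The lines of the 9 genes run close together. Their median is 0.24 in library 22 (marker sum 68.2 CPM), 0.29 in library 14 (80.8 CPM) and -1.001 in library 20 (1433 CPM). The fall is not steady, with -0.63 in library 19 (635 CPM) and -0.20 in library 16 (951 CPM).

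The cortical marker sum ran the other way. It was 1433 CPM in library 20, 1053 in library 23, 951 in library 16, 797 in library 26 and 635 in library 19, and at most 528 CPM in the other 10. Library 22 held the lowest sum (68.2 CPM) and library 14 the next (80.8 CPM). Library 19 had a lower median of the 9 genes than libraries 16 and 23, which held more of the cortical markers, so the orders were not identical. Placed between the wild-type medians of frontal cortex (0%) and of the other striatal libraries (100%), library 20 lay at 43.7% to 47.9% for 7 of the 9 genes, and at 30.8% for Gnal and 32.3% for Arpp21. The indirect-pathway gene Drd2 lay at 44.4% and the direct-pathway gene Drd1 at 38.7%. Among other lists, the oligodendrocyte markers summed to 10347 CPM in library 20, where Mbp was at 4245 CPM, and to between 4743 and 9220 CPM elsewhere in striatum. The choroid plexus markers summed to 49.9 CPM against 28.9 to 3407, the meningeal fibroblast markers to 17.9 CPM against 20.5 to 48.0, and the 5 microglia markers to 268 CPM against 220 to 283. The 5 astrocyte markers summed to 1081 CPM against 793 to 1005, and the 2 cholinergic interneuron markers, led by Chat, to 30.0 CPM against 46.1 to 99.7. None of the markers matched was at 0 in any striatal library. The part of tissue make-up in the levels of the 9 genes was not tested beyond the fit with the marker sum given below.

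The shared movement left little spread within a library. The SD of log2 CPM over the 15 striatal libraries was 0.33 to 0.44 for the 9 genes, and 0.06 (Gng7) to 0.14 (Gnal) once each gene was taken against the mean log2 CPM of the other 8 in its own library. Without library 20 the SDs were 0.21 to 0.34 and 0.06 to 0.14. Between pairs of the 9 genes Pearson's r over the 15 libraries was 0.89 to 0.99, and 0.86 to 0.98 over 14 without library 20. These points share depth, scaling and tissue, so the values are a description. Outside the 9, the genes most like their mean standardized level were Pde1b (r = 0.995), Kcnab1 (0.993), Bcr (0.993), Syt6 (0.992) and Pcp4l1 (0.992). Without library 20 they were Bcr (0.991), Pde1b (0.991), Adcy5 (0.990), Kcnab1 (0.988) and Syt6 (0.987).

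The question of the study, whether loss of the Igf2 enhancer alters expression, was then put to these genes in striatum. None of the 9 passed the test between Igf2enh-/- and wild-type striatum, where 0.036% of the 13875 genes tested did. The log2 fold changes lay between -0.11 (Ppp1r1b, SE 0.18) and 0.14 (Gnal, SE 0.15), with 5 positive and 4 negative and a median of 0.01. Adjusted p-values in edgeR's quasi-likelihood test were 0.83 to 0.99, none of the 9 had an unadjusted p under 0.05 (10.0% of all genes did), and edgeR's likelihood ratio test and DESeq2 also called 0 of 9. The cortical markers that could be tested were all below 0 in the same comparison (7 of 7, median log2 -0.31), as were the oligodendrocyte markers (7 of 7, median log2 -0.31), and none of either was called. Without library 20 the cortical markers were split 4 to 3 (median 0.04) and the oligodendrocyte median was -0.20. Other lists were mostly above 0 with library 20, and none of their genes was called. These were the identity (8 of 8, median log2 0.08), direct-pathway (6 of 7), indirect-pathway (3 of 3), meningeal fibroblast (4 of 4) and choroid plexus markers (3 of 3). Without library 20 the counts above 0 were 3 of 8, 2 of 7, 1 of 3, 3 of 4 and 3 of 3. The ranges of the 2 genotypes overlapped for each of the 9 genes, with the values of library 20 at the lower end of each wild-type range. The 95% intervals reached from -0.49 (Ppp1r1b) to 0.47 (Gnal) on the log2 scale, which is -28.7% to 38.3%, so changes within those bounds could have gone undetected.

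Leaving out library 20 moved all 9 values down and turned 4 of them. Only Gnal (log2 0.03, SE 0.10), then stayed positive and 8 were negative, with a median of -0.08. In edgeR the 8 ran from -0.20 for Ppp1r1b (SE 0.15, adjusted p = 0.721) to -0.04 for Gpr6 (SE 0.14). None of the 9 passed (0.0431% of 13914 genes did). Leaving out library 22, the wild-type library lowest in cortical markers, gave the opposite, with all 9 positive and a median of 0.13. Library 22 also had the lowest RNA concentration of all libraries (61.2 ng per microlitre, the next 134.8), whose part was not tested. Without libraries 20 and 23 the median was -0.03, with 4 positive and 5 negative. Leaving out a single Igf2enh-/- library could also turn the median, to -0.03 without library 13, 21 or 27. Gnal alone kept its sign whichever library was left out (0.03 to 0.20).

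**Figure D4:**
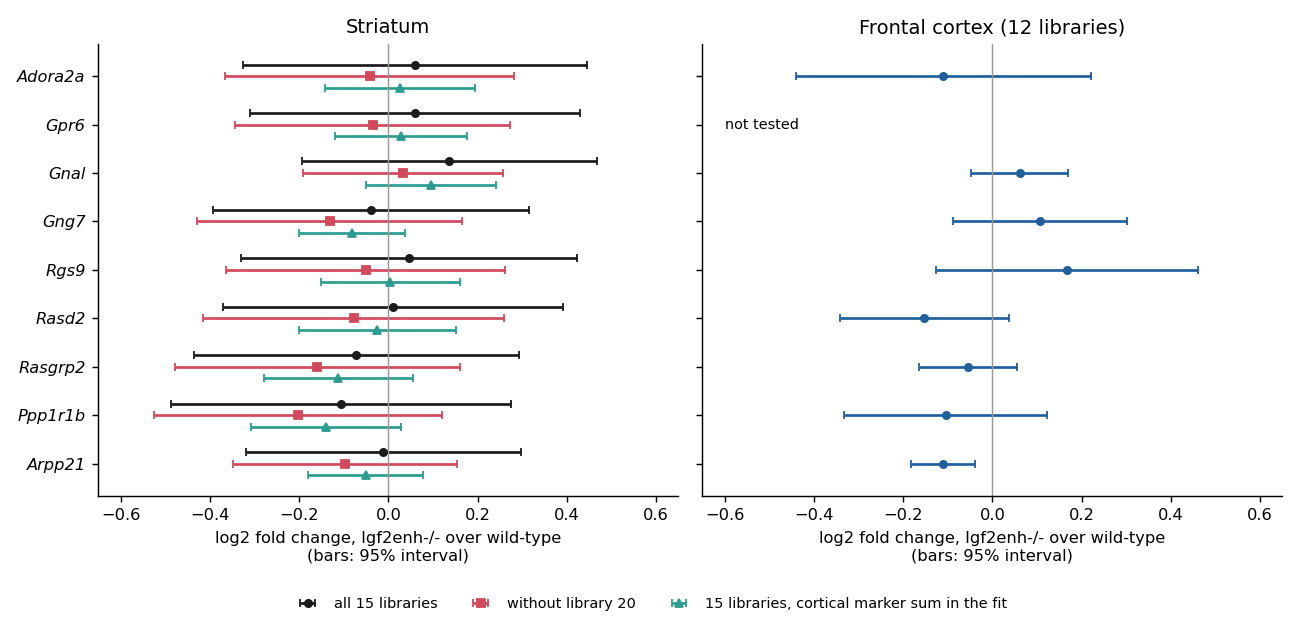
Log2 fold change of Igf2enh-/- over wild-type with 95% intervals, at left in striatum with all 15 libraries (circles), without library 20 (squares) and with the cortical marker sum in the fit (triangles), and at right in frontal cortex. All striatal intervals include 0, and those with the marker sum are narrower (SE 0.06 to 0.08 against 0.14 to 0.18).

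With the summed cortical marker CPM added to the fit, the standard errors of the 9 genes were 0.06 to 0.08, against 0.14 to 0.18 without it. The log2 fold changes were then -0.14 (Ppp1r1b) to 0.10 (Gnal), with 4 positive and 5 negative and a median of -0.02. None of the 9 was called, where 0.295% of 13875 genes were, and the intervals reached from -0.31 to 0.24, or -19.3% to 18.2%. This fit was added after the values were seen.

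Measured within libraries, Ppp1r1b was the gene of the 9 with the most Igf2enh-/- libraries outside the wild-type range. Its log2 CPM exceeded the mean of the other 8 by 1.63 to 1.80 in the 7 wild-type libraries (mean 1.70) and by 1.48 to 1.69 in the 8 Igf2enh-/- libraries (mean 1.58). Of the 8 Igf2enh-/- libraries, 6 were below every wild-type one, with or without library 20. Against the mean of all 9, 0.144% of the 13875 genes tested had 6 or more of 8 below in this way. Rasgrp2 had 4 of 8 below (0.886% of all genes had 4 or more) and a mean of -1.05 against -0.95. Gnal leaned the other way, with a mean of 0.53 in Igf2enh-/- and 0.39 in wild-type libraries, but the ranges of 0.36 to 0.77 and 0.27 to 0.63 overlapped. The shares over all genes are not a like comparison. A gene that does not move with the 9 carries their shared movement in its ratio, which widens its range. They therefore do not say how rare such counts are for 1 of the 9. These ratios were looked at after the values were known, they are not independent of each other, and no test was run on them.

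**Figure D5:**
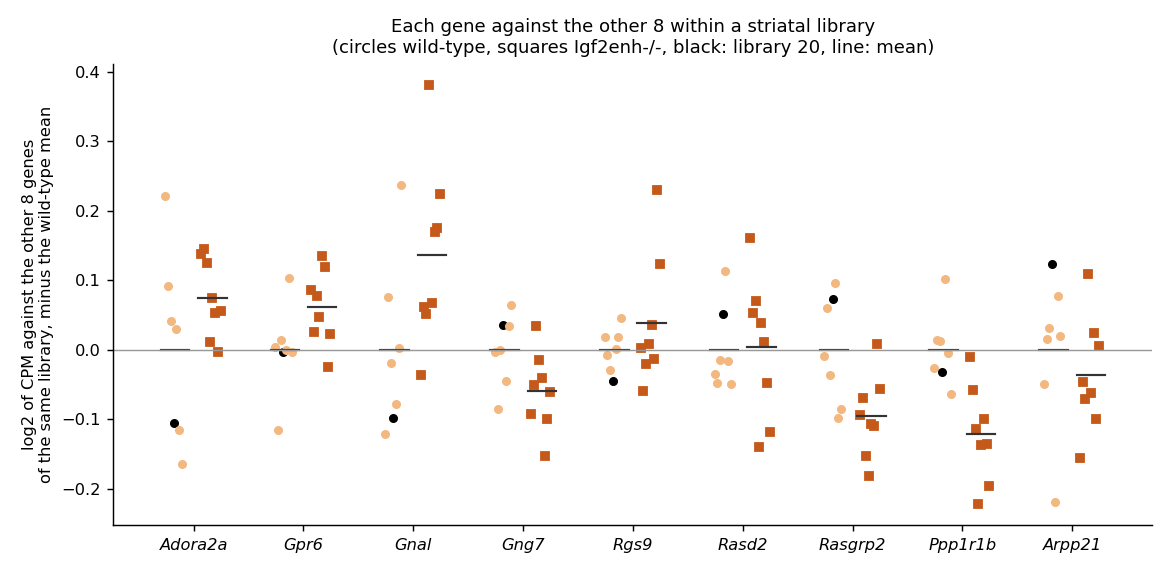
Log2 CPM of each gene minus the mean of the other 8 genes in the same striatal library, centred on the wild-type mean, for 7 wild-type (circles) and 8 Igf2enh-/- libraries (squares). For Ppp1r1b 6 of the 8 Igf2enh-/- libraries lie below every wild-type library, and for Arpp21 and Adora2a all 8 lie within the wild-type range.

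In frontal cortex 8 of the 9 genes were tested, Gpr6 being under 1 CPM in all 12 libraries. None of the 8 passed in edgeR's quasi-likelihood test, where 0.38% of the 13936 genes tested did, and neither edgeR's likelihood ratio test nor DESeq2 called any, although DESeq2 gave no adjusted p for Adora2a. The log2 fold changes were -0.15 (Rasd2, SE 0.09) to 0.17 (Rgs9, SE 0.14), with 3 positive and 5 negative. Arpp21 was the only one with an unadjusted p under 0.05, against 13.5% of all genes. Its levels of 470 to 519 CPM in Igf2enh-/- and 487 to 580 CPM in wild-type libraries overlapped, with 2 of 6 Igf2enh-/- libraries below every wild-type one. The log2 fold change of Arpp21 was -0.11 (SE 0.03, adjusted p = 0.177), and its adjusted p ranged down to 0.062 in DESeq2. Library 1, an Igf2enh-/- female, held the lowest Ppp1r1b (39.6 CPM), the lowest Rasd2 (54.2 CPM), the highest Gng7 (104 CPM) and the highest Rgs9 (6.13 CPM) of the 12. The same library held the lowest oligodendrocyte marker sum (958 CPM, against 1550 to 2077 CPM in wild-type libraries) and the highest meningeal fibroblast sum (127 CPM). Without it the log2 fold change of Gng7 was -0.00059 against 0.11 with it, and that of Ppp1r1b was -0.0095 against -0.10, and the part of tissue make-up in this was not tested.

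Of the 50 signalling pathway genes tested in striatum, 0 were called by edgeR's quasi-likelihood test between genotypes (0.036% of all genes were). An unadjusted p under 0.05 was found for 5 (10.0% of all genes), and the median log2 fold change was 0.02, with 30 positive and 20 negative. Without library 20 edgeR's quasi-likelihood test again called 0 (0.0431% of all genes were called), with 7 under an unadjusted p of 0.05 (1431 of all 13914 genes). The median turned to -0.02, with 21 positive and 29 negative. The smallest adjusted p of edgeR's quasi-likelihood test in that setting was 0.199. With library 20 included, the 3 of smallest p in that test were Ppp1r9b, Cdk5 and Creb1. Ppp1r9b, which encodes the phosphatase 1 scaffold spinophilin, was at -0.13 (SE 0.04, adjusted p = 0.338). The kinase gene Cdk5 was at -0.10 (SE 0.03, adjusted p = 0.348) and the transcription factor gene Creb1 at 0.12 (SE 0.04, adjusted p = 0.384). In frontal cortex 1 of 49 was called (0.38% of all genes were), the muscarinic receptor gene Chrm1. It was at 219 to 242 CPM (median 232) in wild-type and 196 to 221 CPM (median 204) in Igf2enh-/- frontal cortex, and its log2 fold change was -0.17 (SE 0.03, adjusted p = 0.0401). By p Chrm1 ranked 46 among the 53 genes called there, a number that ran from 8 to 99 with 1 library left out.

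Sex was a covariate of the genotype fits. In striatum all 9 genes had lower fitted values in males, with log2 fold changes of -0.40 (Adora2a) to -0.21 (Gnal) and a median of -0.28, where 49.6% of all genes were below 0. None was called by edgeR's quasi-likelihood test (0.0432% of all genes were) or likelihood ratio test, and only Adora2a had an unadjusted p under 0.05, against 10.8% of all genes (adjusted p = 0.461). Adora2a was at 369 to 553 CPM (median 442) in 7 females and 182 to 487 CPM (median 344) in 8 males. The 4 lowest libraries for Adora2a were males, and the other 4 males lay within the range of the females. Lower fitted values in males were also found for all 8 identity (median log2 -0.26), 7 direct-pathway, 3 indirect-pathway and 2 cholinergic interneuron markers. The same held for the 4 meningeal fibroblast and 3 choroid plexus markers tested. The 7 cortical (median log2 0.64), 7 oligodendrocyte and 5 astrocyte markers tested were all higher, and 2 of 5 microglia markers were. None of these markers was called. The cortical marker sum was 80.8 to 951 CPM (median 353) in females and 68.2 to 1433 CPM (median 581) in males. Without library 20 the median log2 fold change was -0.20 with 0 of 9 called (0.0431% of all genes were), and with the marker sum in the fit it was -0.14, with all 9 still negative. In that fit, which was added after the values were seen, 0 of the 9 were called (0.0649% of all genes were). In it 4 of 9 had an unadjusted p under 0.05 (9.46% of all genes). The 9 genes moved together from library to library, so neither this count nor the 9 negative signs are separate results.

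In frontal cortex 0 of 8 genes were called between sexes by either edgeR test (0.0431% of all genes were by the quasi-likelihood test). Arpp21 (log2 -0.11, SE 0.03, adjusted p = 0.495) and Ppp1r1b (log2 0.24, SE 0.11, adjusted p = 0.655) had an unadjusted p under 0.05, which 7.56% of all genes had. The interaction of genotype with sex called 0 of 9 genes in striatum (0.0% of all genes) and 0 of 8 in frontal cortex (0.0215% of all genes) by either edgeR test. None had an unadjusted p under 0.05, against 2.56% of all genes in striatum and 6.36% in frontal cortex. In striatum 8 of the 9 interactions were negative, with a median of -0.15, and the largest was that of Rasd2 (log2 -0.29, SE 0.36). Without library 20 all 9 were negative, with a median of -0.34 and Rasd2 at -0.48 (SE 0.30), and 0 of 9 were called (0.0% of 13914 genes were). The largest in frontal cortex was that of Rgs9 (log2 -0.46, SE 0.25, adjusted p = 0.763).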

How the data were processed

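Total RNA depleted of ribosomal RNA was sequenced as 75-base single reads from 27 libraries. Reads had been trimmed by the authors (Trim Galore 0.5.0) and aligned to GRCm38 by STAR, and they deposited 1 table of raw read counts per gene and region, annotated with GENCODE vM15. The strand setting of the counting is not given in the sources used here. No column belonged to another series. From these counts, TMM-scaled CPM and edgeR 4.0.16 quasi-likelihood tests (R 4.3.3) were computed with sex as a covariate. Genotype fits kept genes that reached 1 CPM throughout the libraries of a region, and the joint fit of both regions kept genes passing filterByExpr, with Benjamini-Hochberg adjustment over all genes and a threshold of 0.05. SE is the absolute log2 fold change over the root of F, and 95% intervals use the moderated degrees of freedom. Genotype was tested within each region, and region within each genotype and as an interaction.

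The 9 genes and all gene lists were chosen with earlier results of these data known. Named genes outside the 9 were taken by rule: the 3 pathway genes at each end of the regional range, the 3 of smallest p by genotype, any called one, and the 5 most correlated with the 9. Beyond the rule, Rgs2, Rgs4, Rgs8 and Rgs14 were named beside Rgs7 as RGS genes of the pathway list. One gene that the rule names is not reported here. Library totals of 23686945 to 33926904 reads set the precision, and p-values measure only the spread between these libraries. The design text gives 14 wild-type and 13 Igf2enh-/- mice, whereas sample titles, which were used, give 13 and 14. Data were also simulated, with a log2 difference of 0.8 put into 200 genes of each comparison. Of these the tests found 96.5% in the striatal genotype comparison (13875 genes), with 6 false calls. In the frontal cortex comparison (13936 genes) they found 98.5%, with 5 false calls. In the wild-type comparison of regions (17963 genes) they found 79%, with 3 false calls. Differences as small as those fitted between genotypes for the 9 genes in striatum (-0.11 to 0.14) were not simulated. The percentages therefore do not say how often such differences would be found. Movement shared between genes from library to library was not examined in the simulated data. Alternatives were DESeq2 1.42.0, edgeR's likelihood ratio test, other scalings and filters, no sex term and leaving out libraries. Promoter windows came from RefSeq.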

Additional observations from a re-analysis of the deposited data

Results flagged for a closer look

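Of the 36 combinations of gene and group examined, 2 held a sample whose gap to its nearest neighbour, as a share of the group's range, passed Dixon's 95% critical value. Chance gives about 1 in 20 such groups when they are independent. Here the genes of a group were measured in the same libraries, so 2 of 36 cannot be weighed against that rate. Gnal was lowest in wild-type striatal library 20, at 389 CPM, with a gap of 0.648 of the range. The same library held the lowest value of the other 8 genes too, none of which passed. Ppp1r1b was lowest in frontal cortex library 1 of the Igf2enh-/- group, at 39.6 CPM, with a gap of 0.626 of the range. That library also held the lowest summed oligodendrocyte markers of its group (958 CPM).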

How the results depend on the processing

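In both regional comparisons every gene kept its direction and its call in all 71 alternatives of each genotype. No gene of the 9 gained or lost a call in any comparison. The genotype differences in striatum, none called, turned sign in 31 of 225 alternatives. Leaving out 1 library at a time moved the log2 fold change from -0.078 to 0.13 for Rasd2, from -0.098 to 0.076 for Arpp21, from -0.035 to 0.15 for Gpr6, from -0.042 to 0.17 for Adora2a, from -0.13 to 0.040 for Gng7, from -0.20 to 0.0081 for Ppp1r1b, from -0.051 to 0.14 for Rgs9 and from -0.16 to 0.043 for Rasgrp2. In frontal cortex Gng7 ranged from -0.00059 to 0.15. Without a sex term Arpp21 was at 0.0074 in striatum, and the region by genotype value of Rasgrp2 was 0.014. Without library 20 the region by genotype values were -0.089 for Ppp1r1b and -0.028 for Gnal, and the genotype by sex value of Adora2a was -0.20. Without libraries 20 and 23, Rasd2 was at -0.030 in striatum and the region by genotype value of Ppp1r1b was -0.031. With the cortical marker sum in the fit Rasd2 was at -0.024, and with library 20 also left out Rasd2 was at -0.030 and Rgs9 at -0.014. These last 2 settings, and the one without libraries 20 and 23, were chosen after seeing the data, and the cause of the sign changes was not tested. Genes called by genotype in striatum numbered 5, against 56 by edgeR's likelihood ratio test, 112 by DESeq2, 10 with no filter, 13 with filterByExpr and 41 with the marker sum. In frontal cortex they numbered 53, against 232, 247, 459 with no filter and 74 with filterByExpr, and 8 to 99 with 1 library left out. Requiring 1 CPM in every library removed Gpr6. No paired analysis was possible because every library has its own number and the labels do not say which libraries share a mouse.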

Other observations

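Genes that ran opposite to the 9 across the striatal libraries were, by the same correlation over 15 libraries, Tbc1d1 (r = -0.974), Ccdc136 (-0.971), Serpina3n (-0.971), Irf2 (-0.968) and Iqsec3 (-0.967). Over the 14 libraries without library 20 they were Bri3bp (-0.981), Sez6l (-0.979), Disp2 (-0.975), Elavl2 (-0.974) and Vsnl1 (-0.971), so the 2 lists of 5 shared no gene. These genes were listed after their values were seen. The points share depth, scaling and tissue, and the values are a description.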
